A study of Mus musculus with 4 samples.

Results

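The genes described here are those of the mouse major histocompatibility complex (MHC), which is named H2 in the mouse, together with the genes that load antigen onto its products. They were found on the array by name: every probe whose gene name begins with H2-, and every probe for B2m, Tap1, Tap2, Tapbp, Cd74, Ciita, Cd80, Cd86, Cd1d1 or Erap1. This gave 49 genes on 78 probes, of 27617 genes on 41174 probes in all. Of these, 33 genes on 55 probes were bright enough to test, of 17737 genes on 26055 probes in all.

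White adipose tissue of female C57BL/6 mice was profiled on Agilent single-colour arrays. The mice were 8 weeks old when the diets began, and stayed for 18 weeks on High fat diet 32 (HFD) or on the chow CE2, which served as the low fat diet (LFD). Each diet has 2 arrays, and each array carries a mix of adipose tissue from 3 mice, so values of single animals were not measured. The labels do not say whether the mixes of a diet came from different mice, so the p-values below reflect only how far these 4 samples vary, and that variation may be technical. The fat depot is not named.

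Cells use these molecules to show protein fragments to T cells. Class I molecules, a heavy chain bound to the light chain B2m, sit on nearly every nucleated cell and carry peptides from the cell's own proteins, pumped into the endoplasmic reticulum by Tap1 and Tap2. Class II molecules, an alpha and a beta chain escorted by the invariant chain Cd74, are made by macrophages, dendritic cells and B cells and carry peptides cut up in endosomes, and adipose tissue macrophages are known for them. The transactivator Ciita is recruited to class II promoters by proteins bound to short elements called the X and Y boxes.

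The 75th percentile of signal was 782 on HFD replicate 2 and 831 to 857 on the other arrays, and no spot was saturated. HFD replicate 2 stood apart at the dim end, with 21314 probes well above background against 26421 to 27940 on the others. Its negative control signal was also the highest, at 110 against 63.5 to 97.0. All 4 arrays lay on 1 slide with 1 scan, per the file headers. The adipocyte markers Adipoq, Plin1, Cidec, Lipe, Pparg, Fabp4 and Lep were all well above background, and none of the 7 passed the test (limma, 1 at an unadjusted p under 0.05 in each direction). A level below is the processed signal divided by the 75th percentile of its own array, on the log2 scale. A change is the mean HFD level minus the mean LFD level, and a call is an adjusted p under 0.05 in limma, adjusted over all 26055 probes. Levels of different probes are not compared, since each probe has its own brightness.

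RefSeq's promoter table for build GRCm38.p6 held 33 of the 49 genes, and 5 of those promoters are shown, of class II and class I genes described below, so that their X box, Y box and interferon-response-like letters can be compared. Each line runs from 165 to 31 bases before the gene's start, 5′ to 3′ on the gene's strand. Capitals mark 3 motifs searched on both strands: the X box core AGNNACNGA, the Y box ATTGG, and the interferon-response-like GAANNGAAA. A match on the other strand appears as its reverse complement. The stretches lie at chr17:34153026-34153160 for H2-DMb1, chr17:34305702-34305836 for H2-Eb1, chr17:34287854-34287988 for H2-Aa (minus strand), chr17:35379452-35379586 for H2-Q4 and chr17:35469924-35470058 for H2-Q10.
H2-DMb1: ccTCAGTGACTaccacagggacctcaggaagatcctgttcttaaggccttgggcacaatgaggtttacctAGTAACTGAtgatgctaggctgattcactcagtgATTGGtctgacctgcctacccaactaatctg
H2-Eb1: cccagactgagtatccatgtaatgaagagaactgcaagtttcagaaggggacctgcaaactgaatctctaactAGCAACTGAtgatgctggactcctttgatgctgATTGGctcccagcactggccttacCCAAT
H2-Aa: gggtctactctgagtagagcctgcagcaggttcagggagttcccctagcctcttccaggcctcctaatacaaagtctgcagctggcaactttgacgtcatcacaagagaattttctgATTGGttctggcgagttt
H2-Q4: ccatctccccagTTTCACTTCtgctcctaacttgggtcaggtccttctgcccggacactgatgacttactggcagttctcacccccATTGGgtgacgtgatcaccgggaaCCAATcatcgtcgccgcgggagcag
H2-Q10: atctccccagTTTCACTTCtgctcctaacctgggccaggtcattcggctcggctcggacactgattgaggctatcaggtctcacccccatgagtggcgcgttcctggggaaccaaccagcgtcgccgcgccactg

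The first 3 lines belong to class II genes and the last 2 to class I genes. The class II genes H2-DMb1 and H2-Eb1 each hold an X box core followed, 34 and 33 bases further on, by a Y box. Such a pair, 20 to 60 bases apart, occurred in 0.302% of all 32817 promoters in the table. Among the 33 genes held there it occurred in H2-DMb1, H2-Eb1 and H2-Eb2. The promoters of H2-Ab1, Cd74 and Ciita were not among those held, so they were not searched. The single motifs are common: the X box core was found in 17.7% of all promoters, the Y box in 37.4% and the interferon-response-like motif in 7.52%. H2-Aa had the Y box and no match to the X box letters used. Of the class I promoters shown, H2-Q4 had Y box letters on both strands, while H2-Q10 had none in this window. No match shared a base with a match of another motif. A match describes letters only, and binding was not measured.

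Across the 33 tested genes, 4 were higher in HFD adipose tissue (H2-Aa, H2-DMb1, H2-Q5 and Cd86) and 1 was lower (H2-Ke6). Of all 17737 tested genes, 5.75% were higher and 5.61% were lower. On the level of probes, 9 of 55 were higher and 3 were lower, against 5.43% and 5.27% of all tested probes. In 24 of the 33 genes both HFD arrays lay above both LFD arrays, and in 2 both lay below, where the shares of all tested genes were 36.2% and 32.7%. The median change of the 33 genes was 0.33, beside 0.02 for all tested genes.

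**Figure D1:**
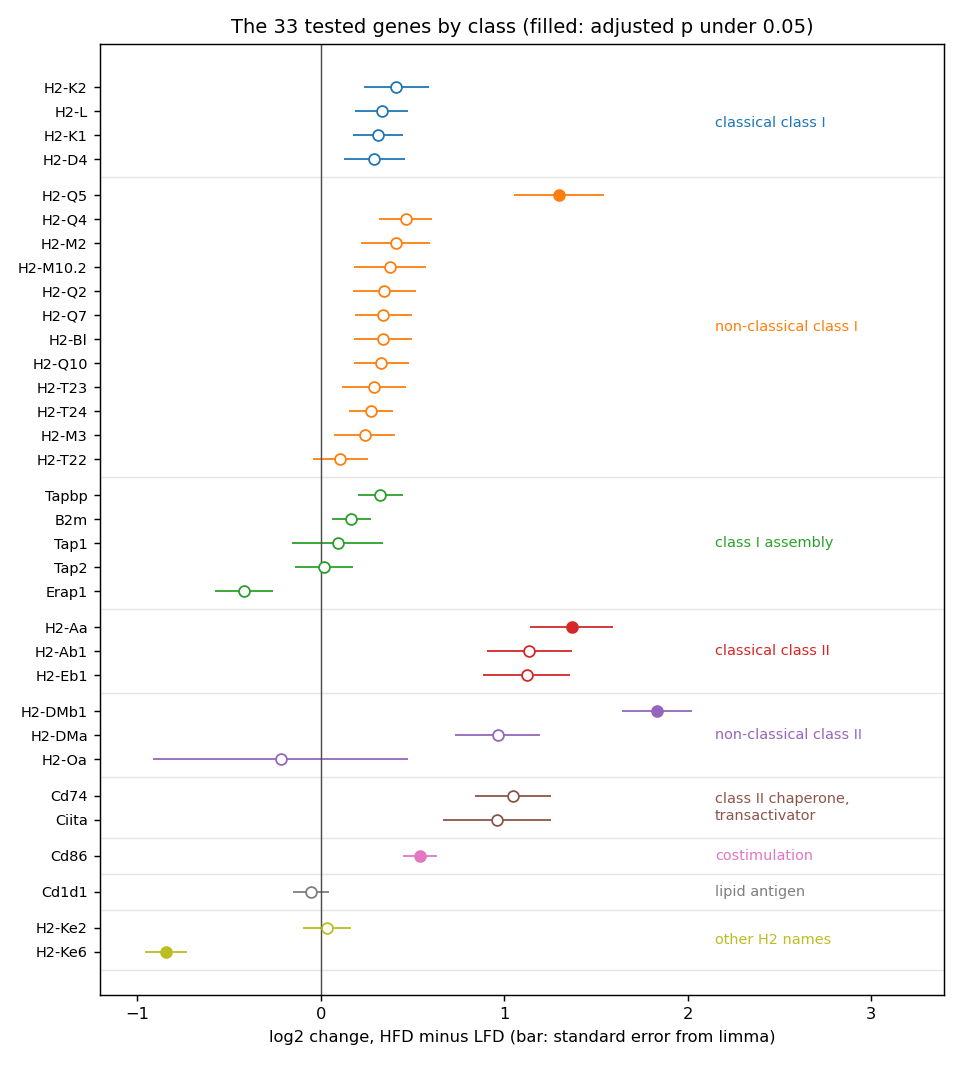
Change of each of the 33 tested genes (log2, HFD minus LFD) with its standard error from limma, grouped by class; filled points passed an adjusted p under 0.05. The class II chains and Cd74 lie near 1 or above it, H2-Oa excepted, and all class I genes other than H2-Q5 lie between 0.11 and 0.46.

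Most of the larger changes were those of class II genes. Of 6 tested class II genes, H2-Aa and H2-DMb1 were higher in HFD tissue and none was lower (limma, 5 higher and 0 lower at an unadjusted p under 0.05). The median change of the 6 was 1.13. In 5 of the 6 both HFD arrays were above both LFD arrays, against 36.2% of all tested genes.

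H2-Aa encodes the alpha chain of the classical class II molecule I-A. Its level was 3.05 and 3.33 on the HFD arrays, against 2.09 and 1.56 on the LFD arrays. The groups did not overlap, and the gap between them was wider than that between the LFD arrays. The change was 1.37 ± 0.23 (SE), a 2.58-fold difference (adjusted p = 0.0397, limma). A second H2-Aa probe gave 1.28 (adjusted p = 0.0415). The brighter probe lies at chr17:34421285-34421344 (mm9, minus strand, per the file headers).

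H2-Ab1 encodes the beta chain that pairs with H2-Aa. The probe of highest signal read 5.78 and 5.96 on the HFD arrays and 5.03 and 4.44 on the LFD arrays, a change of 1.14 ± 0.23 (SE) that missed the threshold (adjusted p = 0.0557, limma). The other 3 H2-Ab1 probes gave changes of 1.19 to 1.22, of which 2 passed (adjusted p = 0.0491 and 0.0459) and 1 did not (0.0539). All 4 probes thus put H2-Ab1 at a change of 1.14 to 1.22, with adjusted p-values on either side of the threshold. H2-Eb1, the beta chain of the class II molecule I-E, read 4.38 and 4.55 on the HFD arrays and 3.65 and 3.04 on the LFD arrays. Its change of 1.12 ± 0.23 (SE) also missed the threshold (adjusted p = 0.0578). C57BL/6 mice are known to lack a working I-E alpha chain, and H2-Ea-ps, the probe for that pseudogene, was not well above background on any array.

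H2-DMb1 encodes the beta chain of H2-M, the catalyst that exchanges the invariant chain's fragment for antigen peptide. Its level was 4.44 on both HFD arrays, against 2.86 and 2.37 on the LFD arrays. This was the largest change among the 33 genes, 1.83 ± 0.19 (SE) or 3.56-fold (adjusted p = 0.0210, limma), and a second probe gave 1.63 (adjusted p = 0.0344). Its main probe lies at chr17:34297109-34297168. The partner alpha chain H2-DMa read 0.98 and 1.14 on the HFD arrays and 0.39 and −0.21 on the LFD arrays, a change of 0.96 ± 0.23 (SE) that did not pass (adjusted p = 0.0714).

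**Figure D2:**
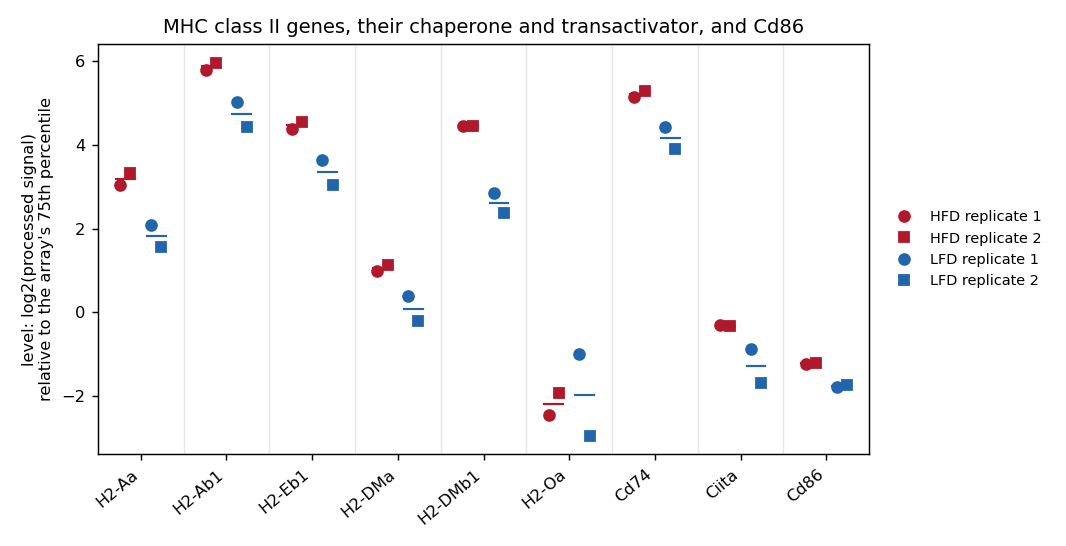
Level of 9 genes on each array (log2 of signal over the 75th percentile; HFD in red on the left, LFD in blue on the right, circles replicate 1, squares replicate 2, lines the diet means). Both HFD points lie above both LFD points for every gene except H2-Oa, where LFD replicate 1 is highest at −1.0 and LFD replicate 2 lowest at −2.94.

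Cd74, the invariant chain that occupies the class II groove until loading, read 5.15 and 5.28 on the HFD arrays and 4.43 and 3.90 on the LFD arrays. The change was 1.05 ± 0.21 (SE), just outside the threshold (adjusted p = 0.0528, limma). Ciita, the transactivator of all these genes, read −0.31 and −0.32 on the HFD arrays and −0.86 and −1.68 on the LFD arrays. The groups did not overlap, but the LFD arrays differed from each other by nearly as much as the diet means did, and the change of 0.96 ± 0.29 (SE) did not pass (adjusted p = 0.109).

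The calls within class II rested on few arrays. When 1 array is left out, the remaining array of that diet is assumed to vary like the pair of the other diet, so passing or failing then reflects a smaller design. Without LFD replicate 1 the changes of H2-Ab1, H2-Eb1, Cd74 and Ciita were 1.44, 1.43, 1.31 and 1.37 (adjusted p = 0.0493, 0.0493, 0.0486 and 0.0431). Without LFD replicate 2 they were 0.84, 0.82, 0.79 and 0.55, and none passed (adjusted p = 0.0622, 0.0629, 0.0601 and 0.0698). H2-Aa did not pass without any one of the arrays (adjusted p = 0.0528 to 0.167), although its change stayed between 1.1 and 1.63. H2-DMb1 passed without either LFD array and not without HFD replicate 1 or HFD replicate 2 (adjusted p = 0.0734 and 0.101). With the replicate number as a block, neither H2-Aa (adjusted p = 0.0781) nor H2-DMb1 (0.0504) passed.

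H2-Oa followed another pattern. It encodes the alpha chain of H2-O, which restrains H2-M and is known chiefly from B cells. Its level was −2.44 and −1.93 on the HFD arrays, against −1.0 and −2.94 on the LFD arrays, so that the LFD arrays lay on either side of the HFD arrays. The change was −0.22 ± 0.70 (SE, adjusted p = 0.844). It was 0.75 without LFD replicate 1 and −1.19 without LFD replicate 2, neither past the threshold (adjusted p = 0.206 and 0.0888).

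One probe of the partner chain H2-Ob read −6.20 and −5.20 on the HFD arrays and −3.10 and −6.36 on the LFD arrays, and was well above background on LFD replicate 1 alone. The other H2-Ob probe, above background on no array, read −4.73 and −4.78 on the HFD arrays and −6.13 and −5.29 on the LFD arrays. H2-DMb2, a second H2-M beta chain, read −3.90 and −3.49 on the HFD arrays and −3.12 and −4.42 on the LFD arrays, above background on replicate 1 of each diet, and neither gene was tested. LFD replicate 1 thus gave the highest reading of H2-Oa, of H2-DMb2 and of the H2-Ob probe seen above background there, and the lowest of the other H2-Ob probe.

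The same array gave the highest reading of 2 of 4 tested B cell markers and of 5 of 6 tested T cell markers. The B cell markers Ms4a1, Cd79a, Cd79b and Cr2 summed to 1.31 and 1.85 on the HFD arrays and to 5.57 and 0.997 on the LFD arrays (linear signal over the 75th percentile), sums carried by Ms4a1 and Cd79b. Cd79a and Cr2, and the T cell marker Cd3e, read lower on LFD replicate 1 than on both HFD arrays. Cd79a was dim, and entered the test through the LFD arrays, since it was above background on 1 HFD array only. Pax5 and Blk were not bright enough to test. The 6 tested T cell markers summed to 1.54 and 3.03 on the HFD arrays and to 5.72 and 1.22 on the LFD arrays. The 4 tested lymph node stroma markers summed to 3.71 and 7.23 on the HFD arrays and to 9.26 and 3.73 on the LFD arrays. Among them Cxcl13, a chemokine that draws B cells, was lower in HFD tissue, at −2.61 and −2.09 on the HFD arrays and −0.11 and −0.43 on the LFD arrays (change −2.08, adjusted p = 0.0227), and Madcam1 was lowest on LFD replicate 1. No B or T cell marker was called in either direction (limma, 2 of 10 at an unadjusted p under 0.05, Cd79a and Cr2, with changes of 0.38 and 0.35). The part of these cells in the class II readings of LFD replicate 1 was not tested.

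**Figure D3:**
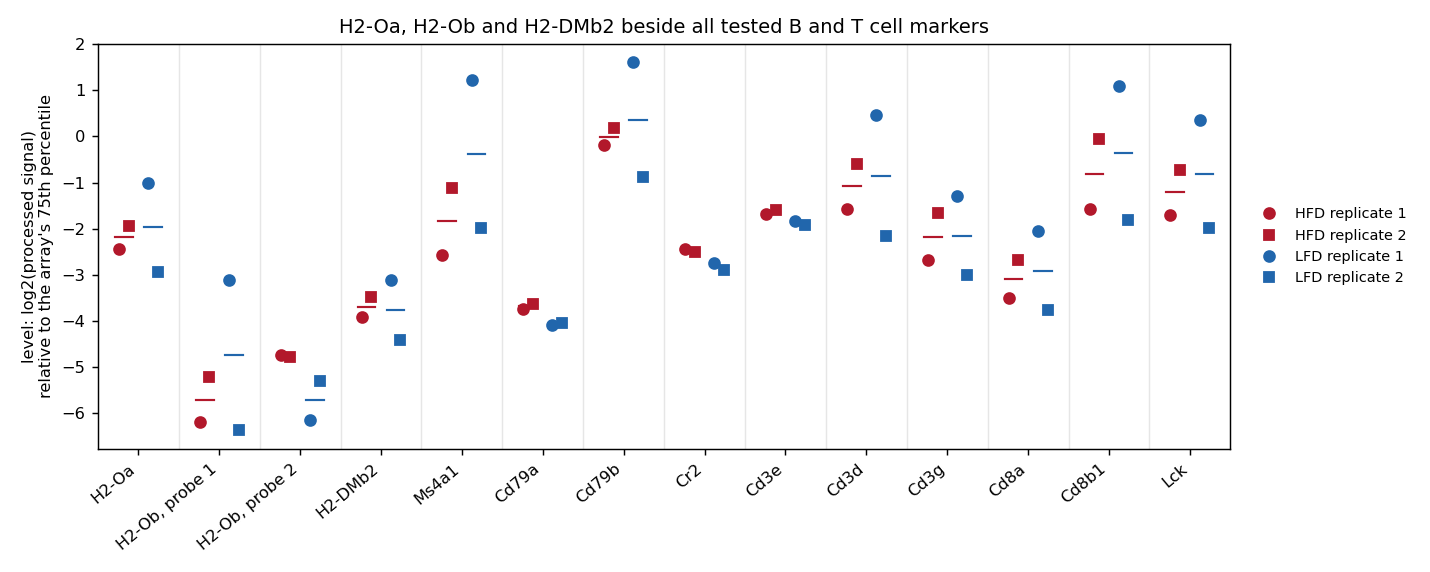
Level of H2-Oa, both H2-Ob probes and H2-DMb2 beside the 4 tested B cell markers (Ms4a1 to Cr2) and the 6 tested T cell markers (Cd3e to Lck) on each array, symbols as in the plot of class II levels. LFD replicate 1 is highest for H2-Oa, H2-Ob probe 1, H2-DMb2, 2 B cell markers and 5 T cell markers, and not for H2-Ob probe 2, Cd79a, Cr2 and Cd3e.

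Most class I heavy chains had small changes between the diets. Taking each gene's probe of highest signal, all 16 tested class I genes had a positive change, against 52.2% of all tested genes. The median of the 16 was 0.34, beside 0.02 for all tested genes, and the range was 0.11 to 1.30. Only H2-Q5 was called (limma, 2 higher and 0 lower at an unadjusted p under 0.05). In 14 of the 16 both HFD arrays were above both LFD arrays, against 36.2% of all tested genes. In H2-D4 and H2-T23 the diets were barely apart. HFD replicate 1 read 4.43 and 6.10 there, and LFD replicate 1 read 4.42 and 6.09. Some of these probes share much of their sequence, as described below, so the 16 may not be separate observations. Of the 28 tested class I probes 1 was higher and 2 were lower, near the 5.43% and 5.27% of all tested probes. Both lower ones belong to H2-Q10, described below. The median class I level was 5.33 and 5.57 on the HFD arrays and 5.34 and 5.03 on the LFD arrays. HFD replicate 1 thus lay just below LFD replicate 1, and the diets overlapped on this median.

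H2-K1, a classical class I heavy chain, read 7.25 and 7.39 on the HFD arrays and 7.14 and 6.88 on the LFD arrays. The change was 0.31 ± 0.14 (SE, adjusted p = 0.190, limma), and its 4 probes gave 0.31 to 0.48, none past the threshold. The main H2-K1 probe was printed 10 times on each array, and those spots differed by an SD of 0.04 to 0.06, far less than the arrays did. The other genes grouped as classical by name, H2-K2, H2-L and H2-D4, had changes of 0.41, 0.33 and 0.29. The H2-K2 probe is assigned to a non-coding RefSeq transcript. No probe on the array is named H2-D1, the other classical heavy chain of this strain. Whether the probes named H2-L or H2-D4 read H2-D1 transcripts was not tested.

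Among the non-classical class I genes, which are less variable and often have special ligands, H2-T23 read 6.10 and 6.27 on the HFD arrays and 6.09 and 5.69 on the LFD arrays. H2-T23 makes Qa-1, the ligand of an inhibitory receptor on natural killer cells, and its change was 0.29 ± 0.18 (SE, adjusted p = 0.304). H2-M3, which presents formylated bacterial peptides, read 1.34 and 1.48 on the HFD arrays and 1.36 and 0.98 on the LFD arrays, overlapping, with a change of 0.24 (adjusted p = 0.355). Without LFD replicate 2 the changes of H2-T23 and H2-M3 were 0.086 and 0.051, and without LFD replicate 1 they were 0.50 and 0.43, none past the threshold. The widest gap was at H2-Q5, a gene of the Q cluster, at 2.62 and 2.85 on the HFD arrays and 1.75 and 1.13 on the LFD arrays. Its 1 probe, at chr17:35532389-35532448 (mm9), is assigned to a non-coding RefSeq transcript.

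H2-Q5 changed by 1.30 ± 0.25 (SE), 2.46-fold (adjusted p = 0.0491, limma). The call was lost under quantile normalization (adjusted p = 0.0550), with a gene's probes averaged (0.0504), with the replicate number as a block (0.0851) and with dim probes kept (0.160). It was also lost without HFD replicate 1, HFD replicate 2 or LFD replicate 2 (0.126, 0.197 and 0.0608), where the change was 1.42, 1.19 and 0.99. The other 10 tested non-classical genes apart from H2-Q10 (H2-Bl, H2-M10.2, H2-M2, H2-M3, H2-Q2, H2-Q4, H2-Q7, H2-T22, H2-T23 and H2-T24) had changes of 0.11 to 0.46, the largest at H2-Q4 (adjusted p = 0.109). The 11 class I genes that were not tested were mostly of the M group, some of which are known from sensory neurons of the vomeronasal organ, and 9 of them were above background on no array.

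H2-Q10 encodes a secreted class I molecule known chiefly from the liver, and its 5 probes did not agree. Counted in order along the gene, probe 3 (chr17:35610468-35610527, mm9) read −0.74 and −0.22 on the HFD arrays, against 1.92 and 1.84 on the LFD arrays. Probe 5 (chr17:35611365-35611424) read 0.69 and 1.14 on the HFD arrays, against 2.94 and 2.84 on the LFD arrays. On both, the LFD arrays differed by 0.1 or less and lay far above the HFD arrays.

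The changes were −2.36 ± 0.20 and −1.98 ± 0.18 (SE, adjusted p = 0.0170 and 0.0181, limma), so these probes were lower in HFD tissue by 5.15-fold and 3.95-fold. Probe 2, of highest signal, read 6.33 and 6.56 on the HFD arrays and 6.24 and 5.99 on the LFD arrays, a change of 0.33 (adjusted p = 0.201), and probe 1 gave 0.28 (0.279). Probe 4 was dim and overlapped, with a change of −0.30 (0.479). H2-Q10 was singled out after its values were seen. Both calls were lost when any one array was left out (adjusted p = 0.0513 to 0.0613), while the changes stayed at −2.62 to −2.10 and −2.21 to −1.76.

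**Figure D4:**
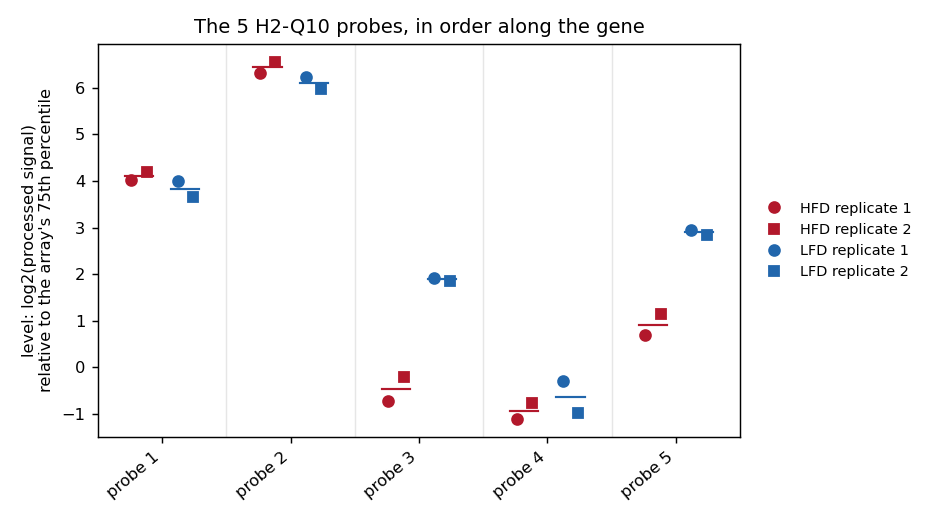
Level of the 5 H2-Q10 probes on each array, in order along the gene, symbols as in the plot of class II levels. Probes 3 and 5 have changes of −2.36 and −1.98 (HFD minus LFD), and probes 1 and 2 lie slightly higher on the HFD arrays.

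Class I genes are close copies of each other, and the probe letters show how close. Which transcripts a probe binds was not tested. The first set gives 30 bases of H2-Q10 probe 3 beside the matching bases of the H2-T23 and H2-Q7 probes. The second set gives 30 bases of H2-Q10 probe 1 beside those of an H2-K1 probe, and the last set does so for H2-L and H2-Q2. Each set shows the 30 shared bases that are most alike, and capitals mark the positions that differ within a set.
H2-Q10, probe 3: agctCtggtggTAtttgtgatgaaGagAag
H2-T23 beside it: agctGtggtggCTtttgtgatgaaGagGag
H2-Q7 beside it: agctGtggtggCTtttgtgatgaaTagGag
H2-Q10, probe 1: atcaccCGacGcaagtgggagcaggctggt
H2-K1 beside it: atcaccAAacAcaagtgggagcaggctggt
H2-L: tccactgactcttacatggtgatcGttgct
H2-Q2 beside it: tccactgactcttacatggtgatcAttgct

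In these 30 bases H2-Q10 probe 3 differed from H2-T23 at 4 positions and from H2-Q7 at 5, and over the 45 bases that it shares with the H2-T23 probe they were 80% identical. That probe was lower in HFD tissue, while H2-T23 and H2-Q7 had changes of 0.29 and 0.34. H2-Q10 probe 1 differed from the H2-K1 probe at 3 of the 30 positions. Over their 52-base overlap they were 76.9% identical, with a run of 20 identical bases. H2-Q10 probe 1 had a change of 0.28, beside 0.48 for that H2-K1 probe. H2-L and H2-Q2 differed at 1 position and were 94% identical over 50 bases. Their changes were 0.33 and 0.35, and whether these probes measure separate transcripts was not tested.

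The genes that assemble class I molecules did not pass in either direction: 0 of 5 were called (limma, 0 at an unadjusted p under 0.05). Of all tested genes 5.75% were higher and 5.61% lower, so a count of 0 among 5 lies near those shares. B2m, the light chain, read 6.45 and 6.58 on the HFD arrays and 6.39 and 6.31 on the LFD arrays, a change of 0.17 ± 0.11 (SE, adjusted p = 0.318). Tap1 and Tap2 form the peptide pump. Tap1 read −0.52 and −0.23 on the HFD arrays and −0.16 and −0.77 on the LFD arrays, and Tap2 read 0.78 and 1.17 against 0.96 and 0.95. Both overlapped, with changes of 0.09 and 0.02.

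Tapbp (tapasin), which bridges the pump to the heavy chain, read 4.71 and 4.79 on the HFD arrays and 4.54 and 4.31 on the LFD arrays, a change of 0.33 ± 0.12 (SE, adjusted p = 0.150). Erap1, which trims peptides in the endoplasmic reticulum, read 1.05 and 0.96 on the HFD arrays and 1.61 and 1.24 on the LFD arrays, a change of −0.42 ± 0.16 (SE, adjusted p = 0.153). Erap1 was the only assembly gene with both HFD arrays below both LFD arrays, where the share of all tested genes was 32.7%. The 14 further genes of class I loading and peptide supply include the immunoproteasome subunits Psmb8, Psmb9 and Psmb10. None of the 14 was called (limma, 3 higher and 1 lower at an unadjusted p under 0.05), where 5.75% of all tested genes were higher and 5.61% lower. The median change of the 14 was 0.16.

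Cd86, a ligand that gives T cells the second signal they need beside the peptide, was higher in HFD tissue. It read −1.22 and −1.21 on the HFD arrays, against −1.78 and −1.73 on the LFD arrays, with arrays of one diet within 0.1 of each other. The change was 0.54 ± 0.09 (SE), 1.46-fold (adjusted p = 0.0410, limma), and a second Cd86 probe gave 0.88 (adjusted p = 0.0237). The call was lost without any one array (adjusted p = 0.0685 to 0.223), while the change stayed at 0.52 to 0.57. The related ligand Cd80 was above background on 1 array of each diet only and was not tested. Of 4 other costimulatory ligands tested (Cd40, Icosl, Cd274 and Icam1) none was called (limma, 1 at an unadjusted p under 0.05).

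Cd1d1, which presents lipids to natural killer T cells, read 6.26 and 6.30 on the HFD arrays and 6.28 and 6.39 on the LFD arrays, a change of −0.05 ± 0.10 (SE, adjusted p = 0.729). Among 7 tested MHC-like genes outside the H2 names, Hfe, a regulator of iron uptake, was higher by 0.85 (adjusted p = 0.0410), and Mr1, which presents vitamin B metabolites, was lower, with a change of −0.95 (adjusted p = 0.0239).

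H2-Ke6 carries an H2 name because it lies in the MHC region, but it encodes a hydroxysteroid dehydrogenase and presents no antigen. It was the 1 gene called lower, at 0.83 and 1.0 on the HFD arrays, against 1.81 and 1.71 on the LFD arrays, a change of −0.84 ± 0.11 (SE, adjusted p = 0.0288, limma). The groups were well apart, yet the call was lost without any one array (adjusted p = 0.0587 to 0.125), where the change was −0.93 to −0.76. Its neighbour by name H2-Ke2, now called Pfdn6, a subunit of the chaperone prefoldin, had a change of 0.04.

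The machinery around the class II molecules was read from a list of proteases, endosomal proteins and Ciita cofactors. Of 15 tested genes 4 were higher, against 5.75% of all tested genes, with a median change of 0.19 over the 15. Ctss (cathepsin S), which cuts the invariant chain in antigen-presenting cells, was higher by 2.07, at 6.49 and 6.48 on the HFD arrays and 4.54 and 4.29 on the LFD arrays (adjusted p = 0.0137, limma). Lgmn, an asparagine-specific endopeptidase, was higher by 1.52 (adjusted p = 0.0178), and Ifi30, a thiol reductase that opens antigens for cutting, by 1.40 (0.0232). Ctsl (cathepsin L) was higher by 0.60 (0.0429). Rfx5, the X box binding protein, was the 1 gene past the threshold in the other direction. But it entered the test through the LFD arrays alone, was near background on both HFD arrays and is given no fold or test. On their probes of highest signal the Y box binding subunits Nfya, Nfyb and Nfyc had changes of 0.09, 0.04 and 0.15, none called. The other tested probes of Nfya and Nfyb gave 0.62 and −0.15.

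Interferon gamma is the best known inducer of Ciita. Of 9 tested genes of its pathway, Ifngr2, a chain of its receptor, was higher by 0.87 (adjusted p = 0.0239, limma), and Irf8, a factor of macrophages and dendritic cells, by 1.08 (0.0455). Ifng itself had a change of 0.14 (adjusted p = 0.776), and its target Irf1 had −0.04. Among 9 tested receptors for these molecules, Pirb, an inhibitory receptor for class I on myeloid cells, was higher by 1.44 (adjusted p = 0.0239). Klrc1, a chain of the Qa-1 receptor, also passed, but it entered the test through the HFD arrays, at −3.21 and −3.01, and was above background on 1 LFD array only, at −4.05 and −4.42 on the LFD arrays.

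Macrophages are among the cells that make class II molecules. Of 9 macrophage markers 6 were higher and none lower, where 5.75% of all tested genes were higher and 5.61% lower. Among the 6 were Cd68, higher by 2.28, Tyrobp by 1.72, Adgre1 by 1.65 and Itgam by 1.14 (adjusted p = 0.0137, 0.0139, 0.0137 and 0.0241, limma). The summed linear signal of the 9 markers over the 75th percentile was 260 and 273 on the HFD arrays and 179 and 163 on the LFD arrays. These sums were carried mostly by Lyz2, at levels of 7.51 and 7.63 on the HFD arrays and 7.22 and 7.08 on the LFD arrays. Lyz2, Mertk and Cd14 were not called on their probes of highest signal. The other tested Lyz2 probe gave a change of 1.32, beside 0.42 for the brighter one. In such tissue RNA, a change in the number of cells of a type and a change in RNA per cell cannot be told apart.

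Of 8 dendritic cell markers, Itgax was higher by 3.04 on its brighter probe (adjusted p = 0.0101), while its other probe gave −0.95. Siglech read −6.62 and −5.49 on the HFD arrays, near background, and −3.09 and −3.45 on the LFD arrays, through which alone it entered the test. Zbtb46, Flt3, Xcr1, Clec9a, Cd209a and Ccr7 were not called. All 4 mesothelium markers were lower, where 5.61% of all tested genes were. Krt19, Upk3b, Wt1 and Msln had changes of −1.82, −1.75, −1.48 and −0.99 (adjusted p = 0.0208, 0.0169, 0.0139 and 0.0374, limma). The part of these cell types in the H2 and Cd86 changes was not tested.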

How the data were processed

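Total RNA (500 ng per sample) was labelled with Cy3 on 1-colour arrays. The deposited scanner files hold spot intensity that the authors' scanner software, Agilent Feature Extraction, had background-subtracted (version 11.0.1.1 per the file headers, 11.5.1.1 per the submitters' processing notes). The deposited value table matched, as a linear ratio, that intensity divided by each array's 75th percentile, and served as an alternative. Here, log2 of the processed signal minus the 75th percentile was averaged over a probe's spots, without control and outlier spots. Tested were the probes that both arrays of 1 diet or of each diet showed well above background, with limma 3.58.1 (R 4.3.3) and Benjamini-Hochberg adjustment, 2 residual degrees of freedom plus a prior of 2.24. The code was tested on simulated data. A gene is its tested probe of highest mean signal. Gene names are those of the files, updated from RefSeq where matched (27668 of 41174 probes). Values per array are given for a panel of members (no probe is named H2-D1, H2-Ob and Cd80 were not tested) and every member past the threshold. Partner genes are named when called, at most 4 a list, and any others were chosen after their values were seen. A marker and a pathway gene of the lists are not reported here and enter no count or sum. The members and lists were chosen with earlier results of these data known. Correlation over tested probes was 0.992 between HFD arrays and 0.989 between LFD arrays.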

Additional observations from a re-analysis of the deposited data

How the results depend on the processing

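The number of arrays limits every value above. The class I median change stayed between 0.19 and 0.48 under all 14 alternatives tried. The class II median, 1.13, was 0.84 with dim probes kept, where the median of all genes was 0.20, and 0.83 to 1.43 leaving out one array. The 4 genes and 9 probes called higher became 8 and 14 with normexp background correction, 8 and 14 over probes above background on all 4 arrays, 9 and 15 with a trended, robust prior, 8 and 14 at an adjusted p under 0.10, and 0 and 0 with dim probes kept (limma, 11 and 18 at an unadjusted p under 0.05). Leaving out one array gave 0 to 6 genes and 0 to 11 probes, with 8 genes and 14 probes at an unadjusted p under 0.05 where the counts were 0. With the replicate block they were 0 and 0 (limma, 10 and 16 at an unadjusted p under 0.05). The numbers share no pattern across the diets (correlation of replicate differences −0.0046), so the block has no basis beyond the numbering. The 1 gene and 3 probes called lower became 0 and 0 with dim probes kept (2 and 4 at an unadjusted p under 0.05), 0 and 1 with the replicate block (2 genes unadjusted), 0 to 0 for genes and 0 to 0 for probes leaving out one array (1 to 3 and 3 to 7 unadjusted), and 0 genes when a 2-fold change was also required. The changes of H2-Ab1, H2-Eb1, H2-DMa and Cd74 passed under normexp, under the filter on all 4 arrays and with the trended prior (adjusted p = 0.0142 to 0.0459). Small changes turned sign: Tap2 to −0.017 under quantile normalization and −0.061 under normexp, Cd1d1 to 0.0086 under normexp, and, leaving out one array, Tap1 (−0.21 to 0.40), Tap2 (−0.17 to 0.21), Cd1d1 (−0.11 to 0.0051) and H2-Oa (−1.19 to 0.75). The cause was not tested.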
